A study of Mus musculus and Homo sapiens with 22 samples.

Results

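The clustered protocadherins are cadherin-type cell adhesion proteins encoded by 3 tandem gene clusters, alpha, beta and gamma. Members were all mouse genes whose symbol starts with Pcdha, Pcdhb or Pcdhg followed by a letter or number and that lie on chromosome 18. Of 56196 genes in the count files, 58 met this rule, 1 pseudogene (Pcdhgb8) was left out, and 57 members remained. These were 14 alpha, 22 beta and 21 gamma genes. On GRCm38 the alpha genes span 36930184 to 37187661 of chromosome 18, the beta genes 37264938 to 37524479 and the gamma genes 37661793 to 37841873, all on the plus strand.

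Neurons express different combinations of these proteins on their surface, which bind the same isoform on a neighbouring cell and so let a neuron tell its own branches from those of other neurons. Each alpha and gamma gene has its own promoter and its own long first exon, called the variable exon, which encodes the extracellular cadherin repeats, the transmembrane segment and the start of the cytoplasmic tail. That exon is spliced to 3 constant exons that all genes of the cluster share. The beta genes have no constant exons, and each encodes its whole protein in a single exon. The C-type members at the end of the alpha and gamma clusters (Pcdhac1, Pcdhac2, Pcdhgc3, Pcdhgc4 and Pcdhgc5) are regulated apart from the alternate members, whose promoters are chosen at random in single neurons through binding of CTCF and cohesin.

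The data came from a study that mapped N6-methyladenosine (m6A), a methyl mark on adenosines of mRNA, with miCLIP2, an antibody crosslinking method, and predicted sites with the m6Aboost classifier. RNA-seq of poly(A)+ RNA was made from mouse embryonic stem cells (mESCs) of wild-type genotype (WT, 3 libraries) and from mESCs with a knockout of Mettl3, the catalytic subunit of the m6A writer (KO, 3 libraries). Both were cell lines of an earlier publication grown in serum with LIF and no other treatment. Site lists covered WT mESCs, with all replicates in 1 list, and mouse heart tissue from inputs of 1 µg or of 300, 100 or 50 ng poly(A)+ RNA, with no genotype, sex or age given and 1 library per input. The question here was how the protocadherin genes are expressed and marked in these cells and this tissue, and how their transcripts differ between KO and WT.

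Between 22746733 and 27254245 reads per library were counted in genes, so that 3 counts, taken as the floor of detection, corresponded to 0.101 to 0.142 CPM (read counts normalised to the library's effective size after TMM). Mettl3 itself had 560, 698 and 612 reads in WT against 462, 669 and 457 in KO, with a log2 fold change of −0.50 and an adjusted p of 0.0134 in edgeR's quasi-likelihood test. It thus did not pass the threshold of 0.01 used throughout, and with the replicate number as a block it did (adjusted p 0.00281). The lines also differed outside Mettl3. Of 7 Y chromosome genes tested, 6 had at most 2 counts in every WT library and between 15 and 1983 in the KO libraries, so effects of the knockout and other differences between the lines cannot be told apart. All 10 pluripotency markers listed passed the filter on low counts, and their summed level was 4649 to 4803 CPM in WT libraries and 3854 to 4005 CPM in KO libraries. The study describes its mESC replicates for miCLIP2 as biological and the RNA-seq as made from matching samples, but how the replicates were separated was not stated. In bulk RNA, fewer expressing cells and less RNA per cell cannot be told apart.

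Because reads that fall in exons of several genes were not counted by the authors' counting mode, the shared constant exons added nothing to any alpha or gamma gene. The count of a member therefore came from its variable exon and other bases that no other annotated gene covers, 494 (Pcdha4) to 4614 (Pcdhgb5) bases in the alpha and gamma clusters and 2588 to 8695 in the beta cluster. The low number for Pcdha4 arose because annotated genes that span the cluster overlap its exon.

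The alpha cluster was close to silent in both genotypes. Of its 14 members, 5 (Pcdha1 to Pcdha5) had no count in any of the 6 libraries, and no member exceeded 4 counts in a library. The member with the most counts was the C-type gene Pcdhac2, with 1, 2 and 2 reads in WT against 2, 4 and 1 in KO. The groups overlapped. The other C-type gene, Pcdhac1, had no count apart from 2 in KO replicate 2. Pcdha6 had 1, 0 and 1 reads in WT against 1, 2 and 3 in KO, and Pcdha7 had none in WT and 4, 2 and 1 in KO. Most of these counts were at or under 3. Summed over the cluster, WT libraries held 5, 2 and 3 counts and KO libraries 7, 18 and 6. At 0.151 ± 0.0803 CPM in WT against 0.369 ± 0.208 CPM in KO (SD, n = 3) the groups overlapped. KO replicate 2 held most of the KO counts, and without it the log2 ratio of KO to WT went from 1.29 to 0.73. None of the 14 members had enough counts to be tested.

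The beta cluster was also low, yet its KO libraries all lay above its WT libraries. Of its 22 members, 7 had no count in any library, 20 had at most 3 counts in each library, and the highest count of any was 11. The summed counts were 3, 3 and 8 in WT and 21, 33 and 31 in KO. This gave 0.211 ± 0.145 CPM in WT against 1.03 ± 0.170 CPM in KO (SD, n = 3), a log2 ratio of 2.29. From the pooled counts, 14 in WT and 85 in KO, the ratio was 5.09 (exact 95% interval 2.87 to 9.70, counting error only). WT replicate 3 was the highest of the WT libraries, and without it the log2 ratio was 3.01.

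Both members with more than 3 counts in a library were higher in every KO library. They exceeded 3 counts only in KO, so this rule picked them through the group in which they were higher. Pcdhb22, the last beta gene, had 1, 1 and 2 reads in WT against 9, 11 and 10 in KO, a ratio of 6.29 (exact 95% interval 2.22 to 24.6). Pcdhb14 had 1, 0 and 1 reads in WT against 5, 6 and 7 in KO, a ratio of 7.55 (exact 95% interval 1.81 to 67.1). Neither gene passed the filter on low counts and neither was tested in the fit used throughout. When genes of any count were tested, edgeR gave Pcdhb22 an adjusted p of 0.00284 and Pcdhb14 an adjusted p of 0.0192, and Pcdhb22 was the only one of 15 beta and 9 alpha members called, against 20.6% of 31057 genes (12.1% higher). Pcdhb18, the next by counts, had 0, 1 and 0 reads in WT against 2, 3 and 2 in KO, which is at or under 3 counts in all libraries. Leaving out Pcdhb22 changed the log2 ratio of the cluster from 2.29 to 2.14.

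**Figure D1:**
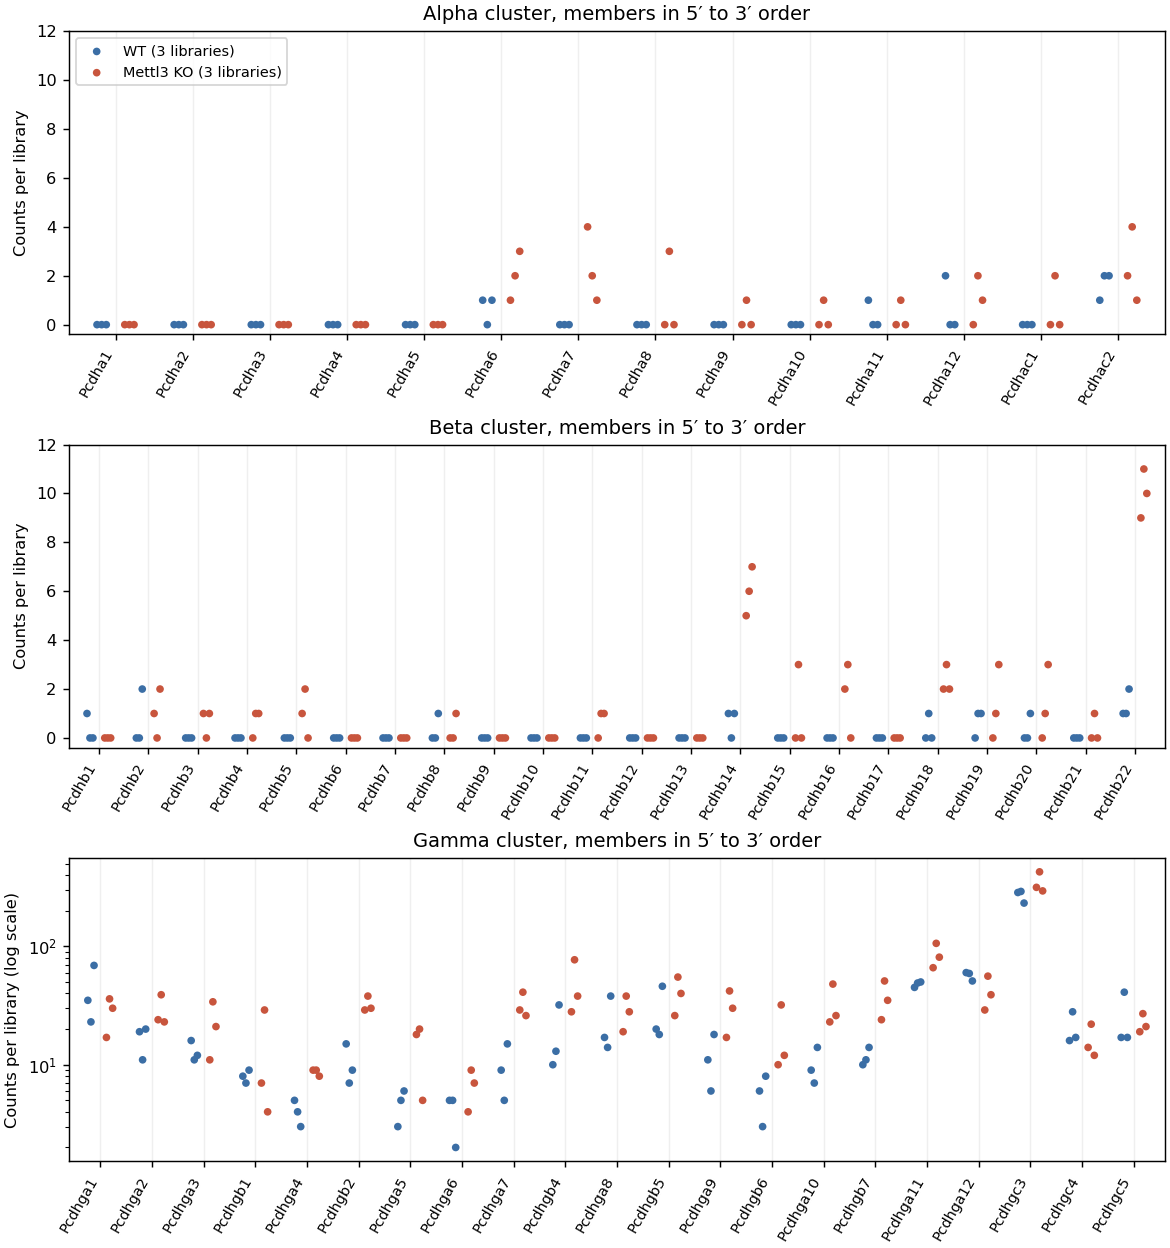
Read counts per library for all 57 members in their order along each cluster (alpha and beta on a linear axis, gamma on a log axis), with 1 point per library for WT and Mettl3 KO. Alpha and beta members stay at or below 11 counts, Pcdhb14 and Pcdhb22 stand out in KO, and Pcdhgc3 is far above the other gamma members with 232 to 426 counts.

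The gamma cluster supplied nearly all protocadherin reads. All 21 members had counts, and their sum was 621, 618 and 682 reads in WT against 738, 1235 and 810 in KO. This gave 28.3 ± 4.43 CPM in WT against 33.6 ± 6.94 CPM in KO (SD, n = 3). The groups overlapped, and KO replicate 2 stood above the other 5 libraries. It held the highest CPM for 13 of the 21 members, and without it the log2 ratio of KO to WT of the sum went from 0.25 to 0.06.

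**Figure D2:**
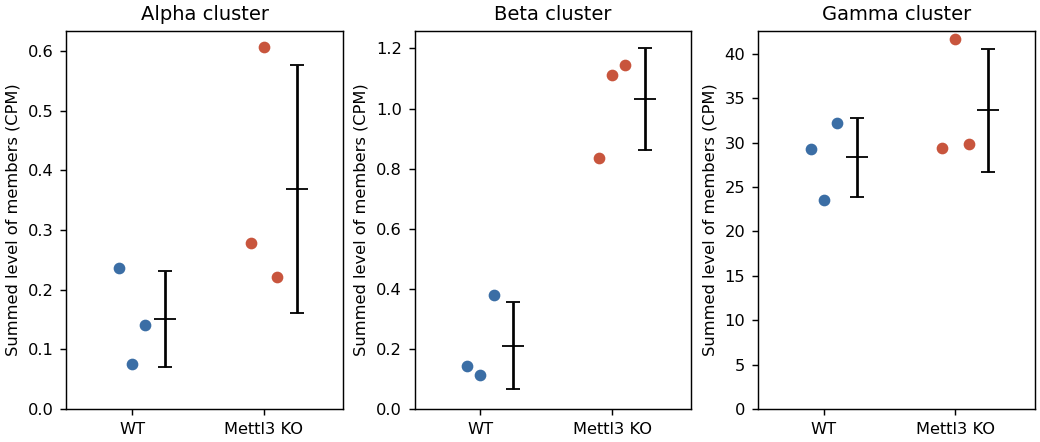
Summed level of all members of a cluster in CPM, with 1 point per library and the mean ± SD (n = 3) beside each group. The beta sums of KO, at 0.835 to 1.14 CPM, lie above all WT sums, while the ranges of WT and KO overlap for alpha and gamma.

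The C-type gene Pcdhgc3 was the main gamma transcript. It had 285, 291 and 232 reads in WT against 315, 426 and 294 in KO. Per kilobase of bases that could be counted, its level was 3.50 ± 0.415 RPKM in WT (SD, n = 3), 4.36 times that of the next member, Pcdhga11 (0.802 ± 0.0943 RPKM), where RPKM is the CPM per kilobase. It made up 34.0% to 47.1% of gamma counts in WT libraries and 34.5% to 42.7% in KO libraries. The groups overlapped, and Pcdhgc3 had a log2 fold change of 0.09 (SE 0.17, adjusted p 0.675, edgeR). The other C-type genes were far lower, with Pcdhgc4 at 16, 28 and 17 reads in WT against 14, 22 and 12 in KO, and Pcdhgc5 at 17, 41 and 17 in WT and 19, 27 and 21 in KO. On the CPM scale all 3 WT libraries of Pcdhgc4 lay above those of KO, while those of Pcdhgc5 overlapped. Their log2 fold changes were −0.59 (SE 0.33, adjusted p 0.172) and −0.39 (SE 0.35, adjusted p 0.384) in edgeR, and neither passed. In WT, Pcdhgc3 and Pcdhga11 were followed by Pcdhga1 (0.594 ± 0.374 RPKM) and Pcdhga12 (0.549 ± 0.0665 RPKM), and the lowest was Pcdhga6 (0.0664 ± 0.0276 RPKM). Pcdhga1 differed from neither Pcdhga11 nor Pcdhga12 beyond its own spread.

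Of the 21 gamma members, 16 passed the filter on low counts and 1 was called changed, against 29.7% of all genes tested (4669 of 15731). The 5 that did not pass (Pcdhgb1, Pcdhga4, Pcdhga5, Pcdhga6 and Pcdhgb6) had mean counts of 5.33 to 11.8. A member could pass through the group in which it was higher, so that the following counts describe only those tested. The called member was Pcdhgb7, a gene of the gamma-B type near the 3′ end of the alternate genes. It had 10, 11 and 14 reads in WT against 24, 51 and 35 in KO, with no overlap, and it rose with a log2 fold change of 1.36 (SE 0.35, adjusted p 0.00974, edgeR). The call was close to the threshold, and it was lost in DESeq2 (adjusted p 0.0186) and when any 1 library other than WT replicate 3 was left out (adjusted p 0.0126 to 0.0427).

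Members with changes of nearly the same size just missed the threshold, of which Pcdhgb2 was picked after its values were seen. Pcdhgb2 had 15, 7 and 9 reads in WT against 29, 38 and 30 in KO (log2 fold change 1.36, SE 0.37, adjusted p 0.0132, edgeR). Pcdhga7 had 9, 5 and 15 reads in WT against 29, 41 and 26 in KO (log2 fold change 1.43, SE 0.43, adjusted p 0.0193, edgeR). Pcdhga10 had 9, 7 and 14 reads in WT against 23, 48 and 26 in KO (log2 fold change 1.39, SE 0.41, adjusted p 0.0182, edgeR). In each of these 3 genes all KO libraries lay above all WT libraries. With the replicate number as a block, edgeR called Pcdhgb2 (adjusted p 0.00462), Pcdhga7 (adjusted p 0.00651) and Pcdhga10 (adjusted p 0.00739) as well, so that with Pcdhgb7 (adjusted p 0.00351) 4 of the 16 gamma members were higher in KO. The block also raised the share of all genes called to 43.5%, with 23.5% called higher, and the members' share was near the latter.

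Of the 16 tested members, 5 were higher in KO with ranges of the libraries that did not overlap (Pcdhgb2, Pcdhga7, Pcdhga10, Pcdhgb7 and Pcdhga11), against 29.2% of all genes tested, and 2 were lower (Pcdhga12 and Pcdhgc4), against 26.9%. The shares of 16 members thus lay near or under those of all genes. Pcdhga11, the alternate member with the highest level, had 45, 49 and 50 reads in WT against 66, 106 and 81 in KO (log2 fold change 0.54, SE 0.24, adjusted p 0.0931, edgeR). Its neighbour Pcdhga12, the last alternate gene, had 60, 59 and 51 reads in WT against 29, 56 and 39 in KO (log2 fold change −0.73, SE 0.27, adjusted p 0.0491, edgeR). Neither passed 0.01, and the adjacent genes had fold changes of opposite sign. Pcdhga1, the first gene of the cluster, had 35, 23 and 69 reads in WT against 17, 36 and 30 in KO (log2 fold change −0.92, SE 0.45, not called in edgeR). Its groups overlapped, and WT replicate 3 was far above the other libraries.

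By type, the median log2 fold change was 1.21 for the 4 gamma-B members tested, 0.49 for the 9 gamma-A members and −0.39 for the 3 gamma-C members. The median was 0.48 over the 16 tested members, −0.02 over all genes tested and 0.52 over all 21 gamma members when none was left out for low counts. Leaving out 1 library moved the median over the tested members from 0.19 (without KO replicate 2) to 0.77 (without WT replicate 3), and with genes of at least 10 counts in every library, which 12 members met, it was 0.19. The gamma-B sum was 3.69 ± 1.71 CPM in WT against 6.77 ± 2.42 CPM in KO, the gamma-A sum 10.9 ± 3.25 and 12.9 ± 2.88 CPM, and the gamma-C sum 13.7 ± 1.22 and 14.0 ± 1.98 CPM (SD, n = 3). In each of the 3 types the groups overlapped.

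**Figure D3:**
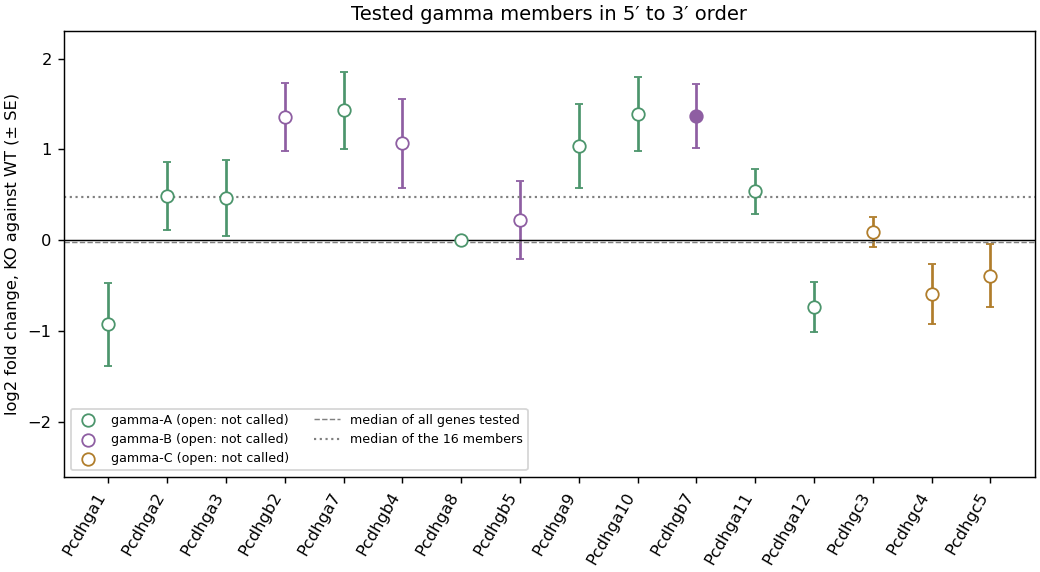
log2 fold change of KO against WT with its SE (edgeR) for the 16 tested gamma members in their order along the cluster, coloured by type, with a filled point for the called member and no SE drawn for Pcdhga8, whose change is close to 0. Pcdhgb2, Pcdhga7, Pcdhgb4, Pcdhga9, Pcdhga10 and Pcdhgb7 have values between 1.04 and 1.43, the C-type genes lie between −0.59 and 0.09, and the dashed line marks the median of all genes tested, −0.02.

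Cell type markers were read beside these values. Of 12 feeder fibroblast markers, 3 (Lum, Dcn and Mgp) had at most 3 counts in every library, Postn and Col3a1 had none or 1 in WT and up to 7 and 5 in KO, and 6 were tested, of which 2 (Fbn1 and Thy1) rose and 1 (Pdgfrb) fell. Their summed level was 13.2 to 18.8 CPM in WT and 25.6 to 31.6 CPM in KO. Of 14 neural markers, 9 were tested and 1 (Map2) rose, and their summed level was 402 to 472 CPM in WT and 332 to 394 CPM in KO. Stmn2, at 297 CPM in WT against 210 CPM in KO on average, made up most of that sum, and Tubb3 was also abundant (38.8 against 48.4 CPM), while Dcx and Neurog2 had at most 4 counts in any library. The part of other cell types in the higher beta and gamma values was not tested.

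Genes known to control the clusters were expressed at high levels. Of 15 promoter and chromatin regulators, all were tested, 1 was higher and 5 were lower in KO, where 17.1% of all genes tested were called higher and 12.6% lower. The same shares stand behind the counts for the other lists. Ezh2, which places the repressive H3K27me3 mark, fell by 0.84 on the log2 scale (SE 0.12, adjusted p 0.000415, edgeR). The cohesin subunits Smc1a and Smc3, which hold the chromatin loops between cluster enhancers and promoters, fell by 0.72 (SE 0.10, adjusted p 0.000279) and by 0.58 (SE 0.10, adjusted p 0.00113) in edgeR. Setdb1, an H3K9 methyltransferase that silences the cluster in neurons, rose with a log2 fold change of 0.61 (SE 0.10, adjusted p 0.00108, edgeR). CTCF binds the variable exon promoters, and Ctcf had 3510, 4014 and 3964 reads in WT against 3827, 4395 and 4138 in KO (log2 fold change −0.16, SE 0.11, adjusted p 0.252, edgeR). Ctcf was named after its values were seen.

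Among 7 genes for partners of the proteins, 6 were tested, 3 rose and 1 fell. The kinase genes Ptk2b (Pyk2) and Ptk2 (focal adhesion kinase), whose products the clustered protocadherins bind and inhibit, rose with log2 fold changes of 1.25 (SE 0.18, adjusted p 0.000444) and 0.73 (SE 0.11, adjusted p 0.000483) in edgeR. Adam10, the protease that sheds the extracellular part of gamma protocadherins, rose with a log2 fold change of 0.46 (SE 0.10, adjusted p 0.00343, edgeR). The receptor gene Ret fell by 1.52 on the log2 scale (SE 0.29, adjusted p 0.00206, edgeR) from 28 to 39 counts in WT to 12 to 14 in KO.

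Protocadherins outside the clusters were also mostly low, and 3 of 12 were tested. Pcdh19, which encodes an adhesion protein of the delta family, had 71, 58 and 67 reads in WT against 240, 285 and 256 in KO and rose with a log2 fold change of 1.72 (SE 0.21, adjusted p 0.000174, edgeR). Pcdh18 had 0, 1 and 1 reads in WT against 11, 11 and 21 in KO (adjusted p 0.00129, edgeR), and the exact 95% interval of the ratio for counting error was 4.70 to 154. Its WT counts were at the floor, so it entered the test through its KO libraries. The other gene tested, Pcdh1, was not called. Of the 34 other protein-coding genes between the clusters or within 500 kb of them, 28 were tested, 5 rose and 1 fell. The largest changes among those called were in Arap3 (1.19), E230025N22Rik (1.08), Wdr55 (0.99) and Slc35a4 (0.82), as log2 fold changes in edgeR. Of the neighbours between and next to the clusters, Slc25a2, Taf7 and Diaph1, picked after their values were seen, had log2 fold changes of −0.06, 0.12 and −0.08, and none was called.

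The m6A site lists were read next. Among 25456 sites in mESCs, 5 were in clustered protocadherins, and all of these were in the variable exon of Pcdhgc3. They lie in the coding part of exon 1 of Pcdhgc3 (GRCm38 chromosome 18, 37806410 to 37808977, plus strand), and their m6Aboost scores are on a scale on which the list starts at 0.5. The adenosine at 37806786, 2191 nt before the 3′ end of the exon, had a score of 0.805 and is the centre of GAACT. Close to it, the one at 37806794 had the lowest score of the 5, 0.505, and is the centre of AGACT. The other sites are near the 3′ end of the exon. The one at 37808454, 523 nt before the end, had a score of 0.764 and the sequence GGACA. The one at 37808546, 431 nt before the end, had a score of 0.738 and the sequence TAACT. The highest score, 0.821, was that of the site at 37808841, 136 nt before the end, with the sequence GGACT. All 5 match DRACH, the consensus at which the m6A writer acts (Wilson 95% interval 56.6% to 100%). The m6Aboost classifier takes the sequence around an adenosine as an input, so its lists favour such motifs. Exon 1 of Pcdhgc3 holds 60 such motifs.

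No other member had an mESC site, and the other members were also lower. Pcdhgc3 was the single member between 10 and 20 CPM in WT, a class in which 46.2% of 1770 genes tested had at least 1 site and 5.82% had 5 or more. The other 15 tested members were below 5 CPM. Sites were found in 6.13% of genes at 2 to 5 CPM, which held 2 members, in 0.870% at 1 to 2 CPM, which held 4, in 0.142% at 0.5 to 1 CPM, which held 6, and in 0.0913% below 0.5 CPM, which held 3. Few genes at these levels had a site, and whether the other members lack the mark in mESCs was not tested.

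**Figure D4:**
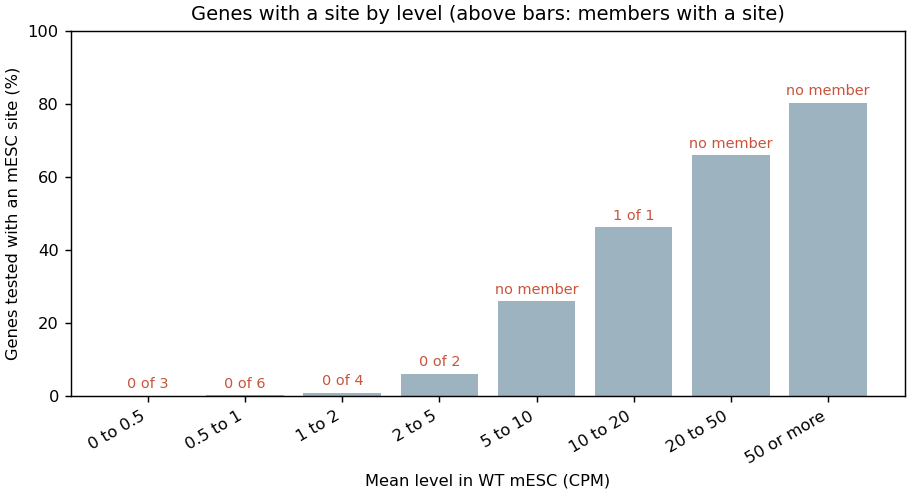
Share of genes tested that have at least 1 site in the mESC list (y axis, percent), by mean level in WT mESCs (x axis, CPM), with the number of members that have a site of all members in that class above each bar. The share climbs from 0.0913% to 80.4%, and the member with sites, Pcdhgc3, is in the class of 10 to 20 CPM.

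Heart tissue showed sites in members of the beta and gamma clusters. Of 46421 sites in the list from 1 µg of RNA, 66 lay in exons of a single member, and they marked 17 of the 57 members. Over all protein-coding genes, 37.4% of 21951 had a site in that list and 29.3% in the mESC list. No alpha gene had a site, 5 beta genes had 16 and 12 gamma genes had 50. Of 8 heart markers, 5 had sites in that list, with 195 in Ttn (titin) and 23 in Ryr2 (the cardiac calcium release channel), Actc1, Nppa and Tnni3 had none, and none of the 8 had an mESC site. Of 10 pluripotency markers, 8 had sites in the mESC list and 2 (Klf4 with 13 and Esrrb with 6) in heart. Expression in heart was not measured, so members without a site may be unmarked or silent there. DRACH was met at 61 of the 66 sites (92.4%, Wilson 95% interval 83.5% to 96.7%). As in the mESC list, the classifier takes this sequence as an input. A high share is thus built into the list and is no result about the members. GGACT was the most frequent sequence with 20 sites, followed by GGACA with 12 and AGACT with 8.

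Pcdhgc3 had the most sites in heart too, 13 in all. Of all protein-coding genes, 3.04% had 13 or more in that list. Of its 13 sites, 12 lay in the coding part of exon 1 and 1 lay just before it, at 37806401, in another annotated exon of the gene. All 5 mESC sites of Pcdhgc3 were among these 13 heart sites at the same nucleotide. Over the 5197 genes with sites in both lists, 68.8% of mESC sites and 51.4% of heart sites were shared. The 5 sites were 7.58% of the heart sites in all members. That share is not comparable with the 51.4%, because no member other than Pcdhgc3 had an mESC site. In the heart list the highest scores in Pcdhgc3 belonged to the site 136 nt before the exon end (higher than or equal to 87.9% of sites in the list), the site at 431 nt (84.7%), the site at 2191 nt (84.3%) and the site at 523 nt (81.3%), which are 4 of the 5 mESC sites.

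Among the alternate gamma genes, Pcdhga7 had 7 sites, Pcdhga2 and Pcdhga5 had 6 each, Pcdhga11 had 4, and Pcdhga1, Pcdhga6 and Pcdhga10 had 3 each. Pcdhgb4 had 2, and Pcdhga3, Pcdhga9 and Pcdhgb6 had 1 each. In the beta cluster, Pcdhb20 had 6 sites and Pcdhb17 had 5, although both had few or no counts in mESCs (0, 0 and 1 in WT and 0, 1 and 3 in KO for Pcdhb20, and none for Pcdhb17). Pcdhb14 and Pcdhb19 had 2 sites each and Pcdhb22 had 1. In mESCs, Pcdhga2 had 19, 11 and 20 reads in WT against 24, 39 and 23 in KO (log2 fold change 0.49, SE 0.37, adjusted p 0.304, edgeR). Pcdhga5 and Pcdhga6 were not tested, with 3, 5 and 6 reads in WT against 18, 20 and 5 in KO for the former and 5, 5 and 2 against 4, 9 and 7 for the latter. None of the members with 3 or more heart sites was called in the fit used throughout. Pcdhga7 and Pcdhga10 were called with the replicate block, without a filter on low counts and without WT replicate 3.

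**Figure D5:**
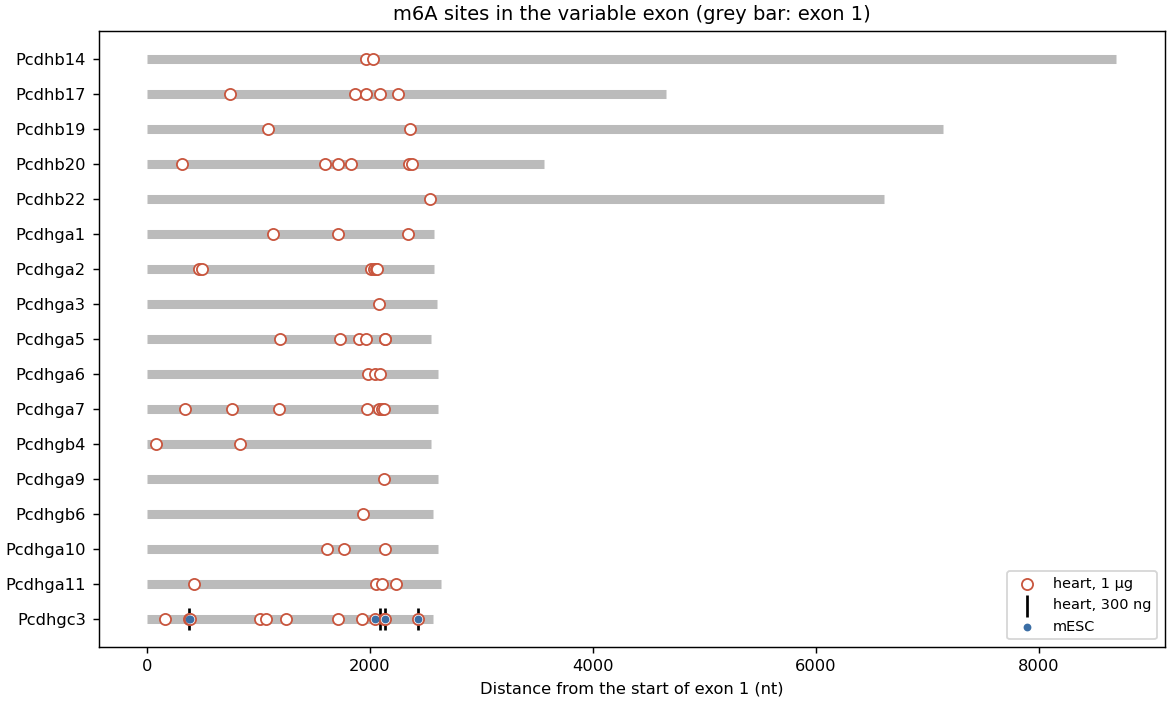
Positions of m6A sites along exon 1 (grey bar, nt from its start) for the 17 members with a site, from the mESC list (filled), heart at 1 µg (open) and heart at 300 ng (ticks). Gamma sites gather in the last part of the exon, all mESC sites are in Pcdhgc3, and beta sites stop before the long part of the exon that follows the coding sequence.

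Most sites lay in coding sequence, and those of the gamma genes lay towards the end of the variable exon. Of the 66 sites, 64 were in the coding part of exon 1. In the gamma genes exon 1 is coding from the start codon to its end, so a high coding share is built in there. All 16 beta sites were upstream of the stop codon, and none lay in the sequence after it. Of the 49 gamma sites in exon 1, with the exon cut into 3 equal parts, 31 (63.3%) were in the part at its 3′ end, 8 in the middle and 10 in the part at its 5′ end. The DRACH motifs of the same 12 exons were spread evenly, with 239, 254 and 242 from the 5′ to the 3′ part (32.9% in the last). The median distance from a gamma site to the exon end was 634 nt, in exons with a median length of 2607 nt over all gamma members.

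The constant exons carried almost no site. The gamma constant exons, 2119 nt in all with 36 DRACH motifs, include the stop codon and the 3′ UTR of every gamma gene, and no site lay there in the mESC or the 1 µg heart list. The alpha constant exons, 2860 nt with 61 DRACH motifs, had none in any list. The alpha genes were close to silent in mESCs and their level in heart was not measured. Whether these exons lack the mark was thus not tested. Among multi-exon protein-coding genes with 5 or more sites, 0.333% of 1803 genes in the mESC list and 0.428% of 3274 in the heart list had all of them in the first exon, and 10.1% and 8.12% had none in the last exon. Of 4 gamma members with 5 or more heart sites, 3 (Pcdhga2, Pcdhga5 and Pcdhga7) had all of them in the first exon, and in the mESC list Pcdhgc3 did. A site in a constant exon cannot be given to 1 member, so none of these members could have a site in its last exon here. In Pcdhga2 and Pcdhga5, exon 1 held all bases that could be counted (2573 and 2545), so their outcome was fixed in advance. Pcdhga7 and Pcdhgc3 had some further bases outside the constant exons. The counts over all genes include these members, and the comparison is no result about them.

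Some sites recurred at nearly the same place in different gamma genes. The windows for this count were chosen after the sites were seen. Around 520 to 526 nt before the exon end, 9 of 21 gamma members carry GGACA, and 6 of these (Pcdhga2, Pcdhga3, Pcdhga6, Pcdhga7, Pcdhga11 and Pcdhgc3) had a heart site on it. In Pcdhgc3 the same adenosine is one of the 5 mESC sites. Around 478 to 484 nt, 11 members carry GGACC and 3 (Pcdhga7, Pcdhga9 and Pcdhga10) had a site. Around 628 to 637 nt, 16 carry AGACT and 3 (Pcdhga6, Pcdhga7 and Pcdhgb6) had a site. The genes are close paralogues, and reads could be placed on the wrong copy. Of 65 heart sites in exon 1, 2 had a surrounding 51 nt found without mismatch in another member (1 in Pcdhb14 and 1 in Pcdhga3), and 9 had a copy with at most 2 mismatches. These 9 were 7 of the 16 beta sites, among them 4 of the 6 in Pcdhb20 and the only one in Pcdhb22, and 2 of the 49 gamma sites. Both gamma sites, in Pcdhga3 at 520 nt and in Pcdhgb6 at 628 nt, are among the recurring sites counted above. The Pcdhgc3 sites differed from every other member by 12 to 24 of the 51 nt.

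Lower inputs of heart RNA kept Pcdhgc3 alone. With 300 ng, whose list held 8845 sites, 4 sites were in exon 1 of Pcdhgc3, of which those 2191, 431 and 136 nt before the exon end were also in the 1 µg and mESC lists and the one at 481 nt was not. Another site of that list, at 37825040, was in the first of the constant exons and belongs to any of the 21 gamma genes. With 100 ng (1112 sites) the site 136 nt before the exon end of Pcdhgc3 remained, and with 50 ng (248 sites) there was none in any member. The lists shortened as a whole, so that a missing site at low input does not show that the adenosine was unmodified.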

How the data were processed

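RNA-seq of poly(A)+ RNA from 3 WT and 3 Mettl3 KO mESC libraries was analysed together with m6A site lists. The authors mapped the reads with STAR 2.6.1b to GRCm38.p6 and deposited raw counts per gene made with HTSeq 0.12.4 on GENCODE M23, using strand and discarding reads that fall in several genes. For the site lists, the authors mapped miCLIP2 reads with STAR 2.7.3a and deposited the m6Aboost prediction as a fraction for mESCs, with replicates combined to 1 list. The score deposited in the heart lists has no stated scale and was used only for its rank. Some heart sample titles give the input in µg where the lists and methods give ng, and ng was used.

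Counts were tested with edgeR 4.0.16 (quasi-likelihood, filterByExpr, TMM, R 4.3.3) over 15731 genes with Benjamini-Hochberg adjustment and a threshold of 0.01 for a call. Bases used by 1 gene only came from an older GENCODE release (M21) that held 98.1% of the gene identifiers. The script was tested on simulated data. Labels number replicates alike in both genotypes, and deviations of same-numbered libraries correlated at 0.122, 0.464 and 0.303, so that a fit with the number as a block was also made. Over the gamma members alone these values were 0.209, −0.251 and 0.267, and differently numbered libraries reached 0.437. Alternatives were DESeq2 1.42.0, other scalings and filters, a threshold of 0.05, leaving out each library, and stricter site lists. Members given in full were the C-type genes, the 3 with the highest mean count in each cluster, those called, and those with 3 or more sites. From each other list up to 4 called genes with the largest change were named. Members and lists were chosen with earlier results of these data known. Exact and Wilson intervals cover counting error only. A second gene annotated as Pcdha11 was called Pcdha10 after RefSeq. The human list was not used here.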

Additional observations from a re-analysis of the deposited data

How the results depend on the processing

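The 1 call among members depended on the processing. DESeq2 gave 0 (34.8% of all genes tested), scaling by library size only 2 (26.3%), no filter on low counts 6, of which 5 gamma and 1 beta (20.6%), and the replicate block 4 (43.5%). A threshold of 0.05 gave 5, a count that has no share over all genes beside it here. Leaving out 1 library gave 0 to 4 calls over all members and over gamma alike, against 17.1% to 33.1% of all genes tested. The 4 calls came without WT replicate 3, where the share of all genes was 33.1%. Scaling with DESeq2 size factors (29.8% of all genes), and at least 10 counts in every library (28.4%), each gave 1. The summed beta level had a log2 ratio of 1.99 to 3.01 when 1 library was left out. Over 188 fold changes of the 16 tested members under these alternatives, 6 calls were lost and 12 gained, and 10 values in 4 members not called (Pcdhga8, Pcdhgb5, Pcdhgc3 and Pcdhgc5) had the opposite sign. Scaling by library size only moved the median of all genes from −0.02 to 0.08 and the gamma median from 0.48 to 0.60. Sites at or above the median score of their list numbered 3 of the 5 in mESCs and 20 of the 66 in heart at 1 µg. Most heart sites in members thus ranked below the median of their list. The causes were not tested. No alpha or beta member passed the filter on low counts, so that their medians over tested members have no value.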
